A study of Equus caballus with 28 samples.

Results

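The miR-200 family (eca-miR-200a, eca-miR-200b, eca-miR-429, eca-miR-200c and eca-miR-141) and eca-miR-205, miRNAs known from epithelial cells, were described across the uterus, the uterine fluid (UF) and the conceptus of the mare on day 13. Entries were taken by these names alone, with any arm suffix, and 6 met this among 844 miRNAs counted, of which 690 were known and 154 predicted. The choice of these names, and of the marker lists below, was made with earlier results of these data known. Small RNA was sequenced from 28 samples, namely endometrial biopsies of 4 cyclic and 5 pregnant cycles, UF of 4 cyclic and 5 pregnant cycles, 5 embryos and the yolk sac (YS) fluid of 5 embryos. All of them were taken 13 days after ovulation from Warmblood mares that had received hCG in both cycles, had been bred with fresh semen of a single stallion in the pregnant cycle and had been left unbred in the cyclic cycle. Each mare was to serve as her own control. The mare was read from the number in the title, 4 mares had samples of both cycles, and mare 5 entered with her pregnant cycle only. UF was absorbed with a tampon, the embryo was flushed from the uterus before the biopsy was taken, YS fluid was aspirated from it with a needle, and embryonic tissue was the conceptus without its capsule. Fluids and tissues were extracted with different kits, so that a fluid and a tissue differ in the kit as well, and these cannot be told apart. A biopsy holds epithelium, stroma, vessels and blood together, and in such bulk samples fewer cells of a type and less RNA per cell cannot be told apart.

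The miR-200 family is expressed from a pair of genomic clusters, miR-200b, miR-200a and miR-429 from the first and miR-200c and miR-141 from the second. Its members keep cells epithelial by repressing ZEB1 and ZEB2, transcription factors that silence E-cadherin, and the family is lost when epithelial cells turn mesenchymal. The seed, the stretch of a miRNA that pairs with its targets, is shared by miR-200b, miR-200c and miR-429, and a closely related seed is shared by miR-200a and miR-141, so that either cluster carries both seeds. miR-205 has another seed and its own locus, also acts on ZEB1 and ZEB2, and is known from the skin, the breast and other epithelia. At the embryo-maternal interface the luminal and glandular epithelium of the endometrium and the trophectoderm of the conceptus are epithelia. In RefSeq's gene list for the horse, made for the assembly TB-T2T and not for that of the counts, 6 of 6 members were found by name. MIR429, MIR200A and MIR200B neighboured each other there, and MIR200C and MIR141 lay next to each other between PTPN6 and PHB2. MIR3548 overlapped MIR200A in that list, and its mature form eca-miR-3548 had only 0 to 13 reads per library. How reads matching several miRNAs were shared out is not given in the sources used here, and members with a common seed may therefore share some reads.

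Levels were given as CPM, the share of a miRNA in the miRNA reads of its library scaled so that all miRNAs sum to 1000000, and a level up to that of 3 reads was taken as the floor. Libraries held 280065 to 590593 reads in pregnant endometrium, 61836 to 371630 in cyclic endometrium, 79173 to 152860 in pregnant UF, 62087 to 226308 in cyclic UF, 28204 to 44768 in the embryo and 4352 to 14531 in YS fluid. The floor accordingly lay at 5.08 to 48.5 CPM in endometrium, 13.3 to 48.3 CPM in UF, 67.0 to 106 CPM in the embryo and 206 to 689 CPM in YS fluid. No molecular identifiers were described for the libraries, so that floors and intervals cover counting error only. The labels were compared with marker miRNAs. Embryonic markers (the miR-302 group, miR-367, miR-371 and miR-372, 8 of 8 with reads) summed to 12019.6 to 65295 CPM in the embryo and 34891 to 264130.1 CPM in YS fluid, and to at most 32.2 CPM in any endometrial or UF library.

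Reads of the 5 miR-200 family members made up 5.03 to 6.64% of a library in cyclic endometrium, 4.92 to 7.21% in pregnant endometrium, 4.88 to 9.63% in cyclic UF, 6.30 to 9.02% in pregnant UF, 9.37 to 13.2% in the embryo and 4.86 to 11.8% in YS fluid. The family was thus abundant in every sample, and it took the largest mean share in the embryo. The embryos exceeded both endometrial groups without overlap, whereas the neighbours in the order of group means, embryo, YS fluid, cyclic UF, pregnant UF, pregnant endometrium and cyclic endometrium, overlapped in each case. eca-miR-200b and eca-miR-200c were among the most abundant miRNAs, with ranks of 3 to 4 and 19 to 26 in the embryo and of 10 to 13 and 8 to 11 in pregnant endometrium. eca-miR-205 was scarce outside UF.

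**Figure D1:**
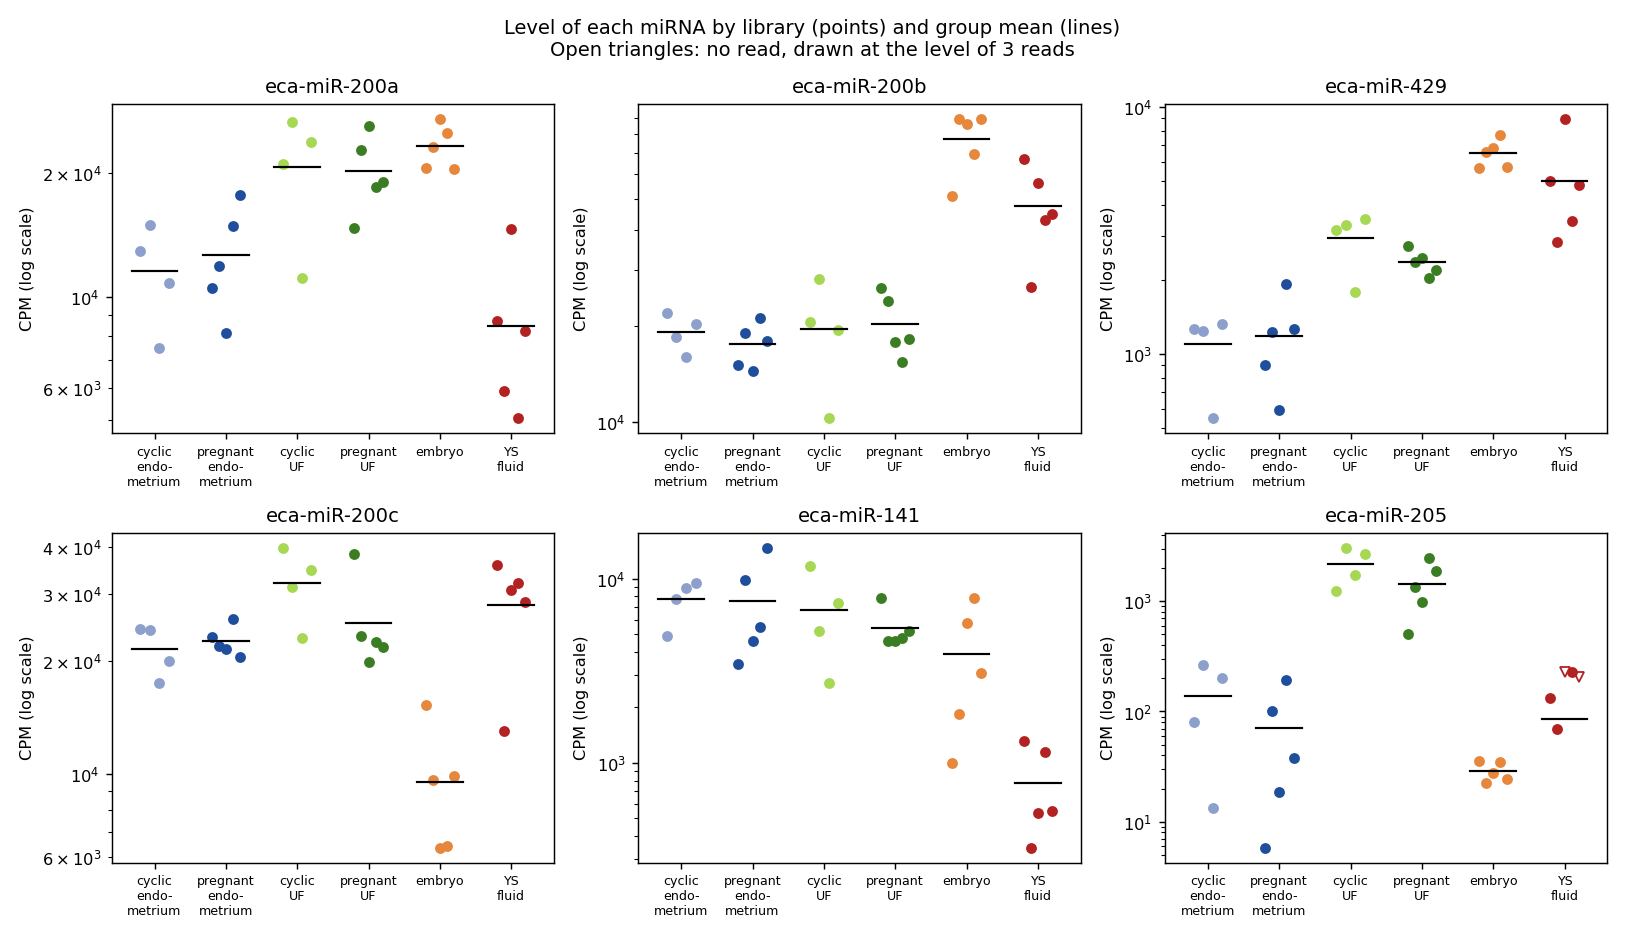
Level of each of the 6 miRNAs in CPM (log axis) in 28 libraries, by group; points are libraries, lines are group means and open triangles mark libraries with 0 reads, drawn at the level of 3 reads. By group means, eca-miR-200b and eca-miR-429 are highest in the embryo, eca-miR-200c is lowest there, eca-miR-141 is lowest in YS fluid and eca-miR-205 is high only in UF.

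eca-miR-200b was the leading member in the conceptus. The 5 embryos had 51198, 89305, 85766, 69175 and 89436 CPM (76976 ± 16657 CPM, mean ± SD, n = 5), and the 5 YS fluids had 66711, 26565, 56253, 42969 and 44801 CPM (47459.6 ± 15097 CPM, n = 5). Pregnant endometrium had 15095, 18984, 14475, 21238 and 17928 CPM (17544 ± 2796 CPM, n = 5) and cyclic endometrium 22026, 18396, 15927 and 20245 CPM (19148 ± 2609 CPM, n = 4). Every embryo and every YS fluid lay above every endometrial library. Pregnant UF had 26393, 23868, 17846, 15400.4 and 18226 CPM (20347 ± 4587 CPM, n = 5) and cyclic UF 20537, 28156, 10259.8 and 19461 CPM (19603 ± 7334 CPM, n = 4), and both groups overlapped both endometrial groups. The lowest YS fluid, 26565 CPM, lay between the highest pregnant UF, 26393 CPM, and the highest cyclic UF, 28156 CPM.

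eca-miR-200a, transcribed with miR-200b, had 20564, 23142, 27125, 24975 and 20457 CPM in the embryos (23253 ± 2873 CPM, n = 5) and 8701, 5880.3, 14618, 5055 and 8258 CPM in the YS fluids (8503 ± 3750.3 CPM, n = 5). The embryos and YS fluids did not overlap, and the YS fluids were the lower. Pregnant endometrium had 10508, 11877, 8143, 14822 and 17713 CPM (12612 ± 3736 CPM, n = 5) and cyclic endometrium 12921, 14958, 7507 and 10784 CPM (11542 ± 3184 CPM, n = 4). Pregnant UF had 14725, 22797, 26011, 18473 and 18971 CPM (20195 ± 4329 CPM, n = 5) and cyclic UF 20996, 26676, 11097 and 23832 CPM (20650.4 ± 6778 CPM, n = 4). UF lay above the endometrium of the same mare in 5 of 5 pregnant and 4 of 4 cyclic cycles, although the groups overlapped.

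eca-miR-429, the least abundant of the family in the uterus, had 5673, 6589.5, 6795, 7689.9 and 5699.9 CPM in the embryos (6489 ± 842 CPM, n = 5) and 5009.9, 2836, 8955, 3447 and 4817 CPM in the YS fluids (5013 ± 2386 CPM, n = 5). These were the highest groups and overlapped each other. Pregnant UF had 2731, 2360.0, 2440.1, 2037 and 2185 CPM (2351 ± 264 CPM, n = 5) and cyclic UF 3173, 3336, 1788 and 3519.7 CPM (2954 ± 790.4 CPM, n = 4). Pregnant endometrium had 898, 1225, 591, 1925 and 1264 CPM (1181 ± 497 CPM, n = 5) and cyclic endometrium 1261, 1242, 549 and 1325 CPM (1095 ± 365 CPM, n = 4). UF and endometrium of the same cycle type did not overlap for this miRNA, and UF was the higher in each mare.

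eca-miR-200c, from the second cluster, went the other way in the embryo. The embryos had 15246, 9627, 6353, 6408 and 9878 CPM (9503 ± 3628 CPM, n = 5), below every endometrial library, with 23124, 21830.2, 21443, 25805 and 20487 CPM in pregnant endometrium (22538 ± 2057 CPM, n = 5) and 24322, 24099, 17402 and 19933 CPM in cyclic endometrium (21439 ± 3364 CPM, n = 4). The YS fluids of the same embryos had 35992, 13006, 30767, 32169 and 28697 CPM (28126 ± 8862 CPM, n = 5), and each exceeded its own embryo. Pregnant UF had 38446, 23207, 19776, 22378 and 21749.8 CPM (25111 ± 7561 CPM, n = 5) and cyclic UF 39840.5, 31298, 22903 and 34740.0 CPM (32195 ± 7119.7 CPM, n = 4). UF, endometrium and YS fluid overlapped throughout.

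eca-miR-141, transcribed with miR-200c, spread widely within its groups. The embryos had 993, 1832, 5745, 7828 and 3067 CPM (3893 ± 2840.0 CPM, n = 5), and pregnant endometrium had 3433, 9814, 4573, 5431 and 14668 CPM (7584 ± 4639 CPM, n = 5). Cyclic endometrium had 4852, 7719.6, 8874 and 9415 CPM (7715 ± 2036 CPM, n = 4), pregnant UF 7875, 4611, 4599, 4748 and 5166 CPM (5399.7 ± 1403 CPM, n = 5) and cyclic UF 11729, 5223, 2722 and 7419 CPM (6773 ± 3821 CPM, n = 4). These 5 groups overlapped. The YS fluids were below every endometrial and UF library, with 1318, 346, 536, 1149 and 551 CPM (779.9 ± 426 CPM, n = 5), which rest on 10, 5, 7, 5 and 8 reads.

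eca-miR-205 was a miRNA of the UF. Cyclic UF had 1228, 3040.1, 1739 and 2678 CPM (2171 ± 834 CPM, n = 4) and pregnant UF 505, 1339, 988, 2446 and 1869 CPM (1429 ± 756 CPM, n = 5), from 68 to 688 reads per library. Cyclic endometrium had 80.9, 262, 13.5 and 201 CPM (139 ± 113 CPM, n = 4) and pregnant endometrium 5.81, 101, 18.6, 193 and 38.2 CPM (71.2 ± 77.1 CPM, n = 5), from 2 to 79 reads. The lowest UF library lay above the highest endometrial library. In the conceptus it was at the limit of detection, with exactly 1 read in each of the 5 embryos and 1, 1, 0, 1 and 0 reads in the 5 YS fluids, where 0 reads allow a level of up to 229.6 and 206 CPM. Over the pooled reads of a group it was 46.0-fold (95% interval 19.6 to 142.2) higher in pregnant UF than in the embryo and 23.1-fold (95% interval 7.87 to 112) higher than in YS fluid. Against pooled pregnant endometrium the ratios were 2.18-fold (95% interval 0.908 to 6.86) for endometrium over embryo and 1.10-fold (95% interval 0.365 to 5.39) for endometrium over YS fluid, both with intervals that include equality.

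The makeup of the family differed between the uterus and the conceptus. Of the family's reads, the cluster of eca-miR-200b, eca-miR-200a and eca-miR-429 gave 47.7 to 55.4% in cyclic endometrium, 47.1 to 54.9% in pregnant endometrium, 46.4 to 61.4% in cyclic UF and 48.6 to 65.5% in pregnant UF. The same cluster gave 82.7 to 91.2% in the embryo and 60.7 to 72.5% in YS fluid. eca-miR-200b alone gave 54.7 to 69.6% of the family in the embryo and 50.6 to 56.7% in YS fluid, against 24.9 to 30.7% in pregnant endometrium. Grouped by seed instead, the members that share the seed of eca-miR-200b, eca-miR-200c and eca-miR-429 gave 55.1 to 74.2% in pregnant endometrium, 56.7 to 74.9% in pregnant UF, 71.7 to 81.7% in the embryo and 86.4 to 92.7% in YS fluid. The YS fluids therefore carried the seed of eca-miR-200a and eca-miR-141 in 7.32 to 13.6% of family reads, below every other group. These are shares of reads and were not tested, since shares within a library depend on each other.

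**Figure D2:**
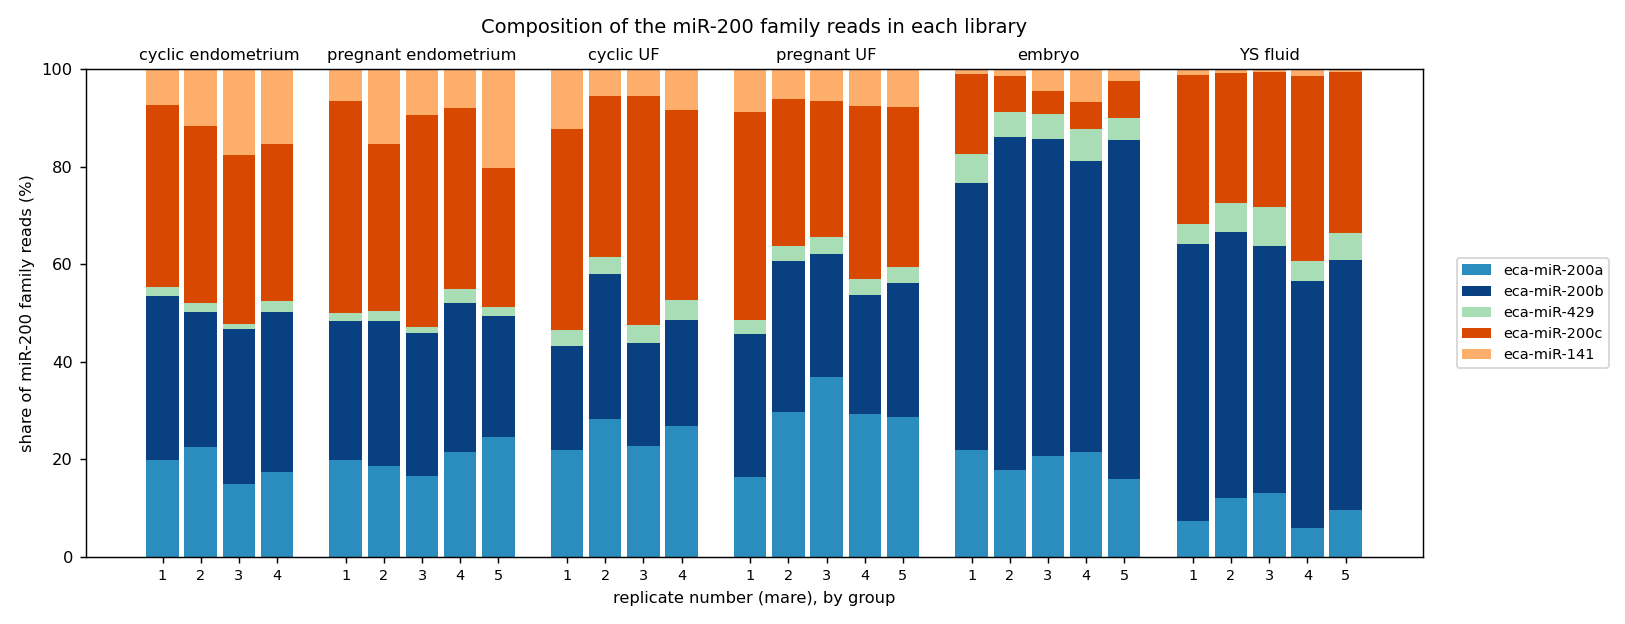
Share of the miR-200 family reads (%) held by each of the 5 members in 28 libraries, with replicate numbers (mares) along the horizontal axis and libraries ordered by group. The cluster of eca-miR-200b, eca-miR-200a and eca-miR-429 takes 82.7 to 91.2% in the embryos and 47.1 to 54.9% in pregnant endometrium.

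A ratio of reads within a library does not depend on how libraries are scaled, and partners with the same seed from different clusters were compared in this way. The ratio of eca-miR-200c to eca-miR-200b reads was 0.298, 0.108, 0.0741, 0.0926 and 0.11 in the embryos and 0.54, 0.49, 0.547, 0.749 and 0.641 in the YS fluids. It was 1.53, 1.15, 1.48, 1.22 and 1.14 in pregnant endometrium, 1.46, 0.972, 1.11, 1.45 and 1.19 in pregnant UF, 1.10, 1.31, 1.09 and 0.985 in cyclic endometrium and 1.94, 1.11, 2.23 and 1.79 in cyclic UF. Embryo, YS fluid and the uterine groups formed separate ranges in that order. The mean log2 ratio was −3.06 ± 0.77 in the embryo, −0.77 ± 0.24 in YS fluid, 0.37 ± 0.20 in pregnant endometrium and 0.29 ± 0.25 in pregnant UF (SD, n = 5 each). The embryo was lower than pregnant endometrium by 10.8-fold and lower than pregnant UF by 10.2-fold. YS fluid was lower than pregnant endometrium by 2.20-fold and than pregnant UF by 2.08-fold, and the embryo was lower than YS fluid by 4.90-fold. Each of these 5 differences had p = 0.00794 in an exact two-sided permutation test, the smallest value that 5 against 5 samples can give, and 0.0204 after Benjamini-Hochberg adjustment over 18 ratio tests. This test took no account of the mare, although the groups came from the same mares. Within mares, each of these differences was lower in 5 of 5 pairs. There the exact sign-flip permutation test gave p = 0.0625 (adjusted 0.141), the smallest that 5 pairs allow, and so could not pass.

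The ratio of eca-miR-141 to eca-miR-200a, the partners with the other seed, was 0.0483, 0.0792, 0.212, 0.313 and 0.15 in the embryos and 0.152, 0.0588, 0.0366, 0.227 and 0.0667 in the YS fluids. It was 0.327, 0.826, 0.562, 0.366 and 0.828 in pregnant endometrium, 0.535, 0.202, 0.177, 0.257 and 0.272 in pregnant UF, 0.375, 0.516, 1.18 and 0.873 in cyclic endometrium and 0.559, 0.196, 0.245 and 0.311 in cyclic UF. The embryo and YS fluid lay below pregnant endometrium without overlap, by 4.11-fold and 5.83-fold, each with an exact permutation p of 0.00794 and an adjusted value of 0.0204. Within mares both were lower in 5 of 5 pairs, where the sign-flip test again could not pass (adjusted 0.141). Pregnant UF was 2.03-fold below pregnant endometrium (exact permutation p = 0.0397, adjusted 0.0794), cyclic UF 2.21-fold below cyclic endometrium (p = 0.0857, adjusted 0.129, exact permutation) and YS fluid 2.87-fold below pregnant UF (p = 0.0317, adjusted 0.0714, exact permutation), and these did not pass after adjustment. Without pregnant UF of mare 1 the log2 difference between pregnant UF and pregnant endometrium was −1.27 in place of −1.02, and without YS fluid 4 that between YS fluid and pregnant UF was −1.87 in place of −1.52, and both then passed. The difference between embryo and pregnant UF, −1.02, and that between embryo and YS fluid, 0.50, did not pass (adjusted exact permutation p = 0.176 and 0.552). Between pregnant and cyclic samples no ratio passed without regard to the mare, with adjusted exact permutation p of 0.204 and 0.563 in endometrium and 0.129 and 0.635 in UF. Within mares, the ratio of eca-miR-200c to eca-miR-200b was lower in pregnant than in cyclic UF in 4 of 4 mares, by a mean of −0.48 on the log2 scale. The exact sign-flip permutation test gave p = 0.125, the smallest that 4 pairs allow (adjusted 0.25), and so could not pass.

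Members of a single cluster were also compared, as a description. eca-miR-200c exceeded eca-miR-141 by 27.3 to 57.4 times in YS fluid, by 4.21 to 5.03 times in pregnant UF, by 3.40 to 8.41 times in cyclic UF, by 1.40 to 6.74 times in pregnant endometrium and by 1.96 to 5.01 times in cyclic endometrium. In the embryos this ratio ran from 0.819 in embryo 4 to 15.4 in embryo 1. The YS fluids stood apart from the other 23 libraries. Within the first cluster, the ratio of eca-miR-200b to eca-miR-200a was 3.85 to 8.50 in YS fluid and 2.49 to 4.37 in the embryo, against 1.01 to 1.78 in pregnant endometrium and 0.686 to 1.79 in pregnant UF. The ratio of eca-miR-200b to eca-miR-429 was 11.0 to 24.5 in pregnant endometrium, 7.31 to 10.1 in pregnant UF, 9.0 to 15.7 in the embryo and 6.28 to 13.3 in YS fluid.

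**Figure D3:**
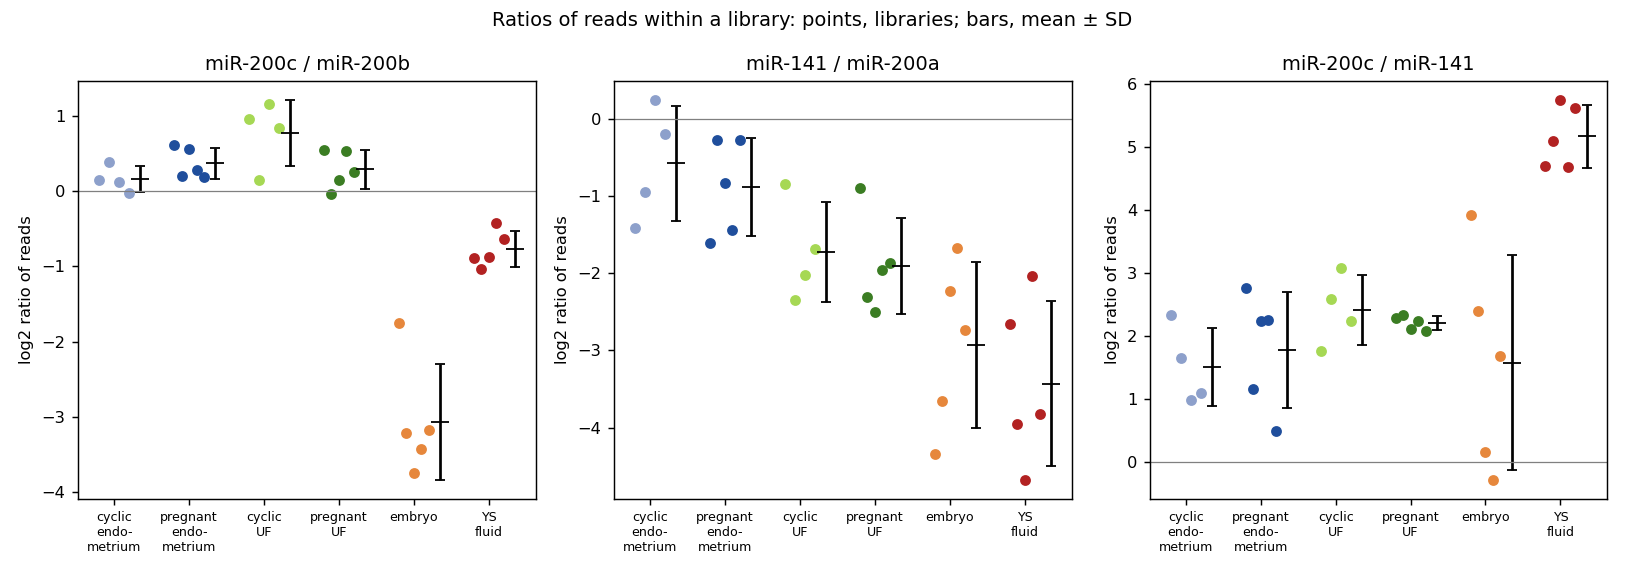
Log2 ratio of reads within each library for eca-miR-200c over eca-miR-200b, eca-miR-141 over eca-miR-200a and eca-miR-200c over eca-miR-141, by group; points are libraries and bars give the mean ± SD. The embryos and YS fluids lie below the uterine groups in the first panel, and the YS fluids lie above all other libraries in the third.

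Each miRNA was then tested between groups with edgeR's quasi-likelihood test and counted as called when its fold change reached 2 and its FDR did not exceed 0.05. How the libraries are scaled decides part of the comparisons with the embryo and YS fluid. Against the TMM factors used here, scaling to library totals only raised the median log2 fold change of all miRNAs tested by 1.33 in embryo against pregnant endometrium, 2.00 in YS fluid against pregnant endometrium, 1.41 in embryo against pregnant UF and 1.68 in YS fluid against pregnant UF, and moved it by −0.61 in embryo against YS fluid. RLE size factors moved it by 0.47, 0.82, 0.60, 0.68 and −0.16 in the same order. In pregnant UF against pregnant endometrium the shifts were 0.12 with totals and −0.02 with RLE, and in cyclic UF against cyclic endometrium 0.16 and 0.21. In pregnant against cyclic samples the totals moved it by −0.23 in endometrium and −0.10 in UF. The balance of calls among all miRNAs tested moved with it. In embryo against pregnant endometrium 103 were called higher and 153 lower with TMM, and 140 and 94 with totals. In YS fluid against pregnant endometrium the calls with TMM, RLE and totals were 61 and 120, 78 and 87, and 119 and 59, in embryo against pregnant UF 92 and 120, 116 and 100, and 146 and 85, in YS fluid against pregnant UF 65 and 100, 87 and 78, and 114 and 52, and in embryo against YS fluid 57 and 34, 56 and 37, and 40 and 55. On simulated data TMM factors shifted the comparisons of the embryo and YS fluid libraries with deeper ones. The log2 fold changes below are those with TMM, and the other scalings are given beside them.

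Between the embryo and pregnant endometrium, eca-miR-429 was higher and eca-miR-200c lower in the embryo under each of the 3 scalings. eca-miR-429 differed by 1.19 ± 0.30 (SE), FDR = 0.00428 on the log2 scale (1.69 with RLE size factors and 2.46 with totals only, called in each). eca-miR-200c differed by −2.56 ± 0.29 (SE), FDR = 1.01e-05 (−2.04 with RLE size factors and −1.24 with totals only, called in each). eca-miR-141 was lower, at −2.28 ± 0.58 (SE), FDR = 0.00462 and was called with RLE (−1.80) but not with totals (−0.96). eca-miR-200b was higher in direction under each scaling, at 0.81 ± 0.19 (SE), FDR = 0.0032, which is below a 2-fold change, and was called with RLE (1.29) and totals (2.14). It was also called with TMM under a minimum count of 10 (1.21) and with thinned libraries (1.90), and with DESeq2 (1.29). eca-miR-200a was not called and turned its direction with the scaling, at −0.41 with TMM, 0.10 with RLE and 0.89 with totals, while its CPM in the embryo was above every library of pregnant endometrium. eca-miR-205 passed with TMM only (FDR = 0.0258), on 1 read per embryo, and no fold change is given for it. In all, 4 of 6 members were called, read against 71.3% of 359 miRNAs tested, with 1 higher against 28.7% and 3 lower against 42.6%. The median log2 fold change was −0.41 for the 5 family members and −1.03 for the 359 miRNAs tested, leaving out eca-miR-205 for its few reads here and below. Without embryo 4, eca-miR-429 was at 0.93 (FDR = 0.0305) and below a 2-fold change, and without pregnant endometrium of mare 2 or 4 the call of eca-miR-205 was lost (FDR = 0.0552 and 0.0628). In a single fit of 28 libraries eca-miR-429 was at 0.91 and no longer called, and with libraries thinned to the smallest eca-miR-141 was not (−1.26, FDR = 0.0615).

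Between YS fluid and pregnant endometrium, eca-miR-141 was lower in YS fluid under each scaling, at −5.43 ± 0.56 (SE), FDR = 1.17e-06 on the log2 scale (−4.61 with RLE size factors and −3.38 with totals only). eca-miR-200a was lower, at −2.58 ± 0.37 (SE), FDR = 2.19e-05 and was called with RLE (−1.78) but not with totals (−0.56). eca-miR-200c was lower, at −1.69 ± 0.34 (SE), FDR = 0.000592 with TMM, but not called with RLE (−0.93) and of the opposite direction with totals (0.32). eca-miR-200b was not called with TMM (−0.58) or RLE (0.19) and was called higher with totals (1.44), and eca-miR-429 was 0.11, 0.90 and 2.10 in the same order, called with totals only. For eca-miR-205, at 0 or 1 read in each YS fluid, no difference was detectable at this depth (FDR = 0.121). With TMM 3 of 6 members were called, read against 53.1% of 341 miRNAs, 0 of them higher against 17.9% and 3 lower against 35.2%. The median log2 fold change was −1.69 for the 5 family members and −0.84 for the 341 miRNAs tested. Without YS fluid 3, eca-miR-200b was called lower (−1.01), and without pregnant endometrium of mare 1 eca-miR-205 was called lower. With libraries thinned to the smallest, eca-miR-200b (1.23, FDR = 0.00188) and eca-miR-429 (1.33, FDR = 0.0225) were called higher. The calls of eca-miR-200a (−0.77) and eca-miR-200c (0.26) were then lost. That of eca-miR-200c was also lost with known miRNAs only (−0.91) and with DESeq2 (−0.93).

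Against pregnant UF, the embryo was lower in eca-miR-200c under each scaling, at −2.92 ± 0.36 (SE), FDR = 2.45e-05 on the log2 scale (−2.18 with RLE size factors and −1.40 with totals only), and in eca-miR-205, which was called under each scaling (FDR = 8.19e-07 with TMM) and for which the pooled ratio above stands in place of a fold change. eca-miR-141 was lower, at −2.02 ± 0.50 (SE), FDR = 0.00388 and was called with RLE (−1.39) but not with totals (−0.47). eca-miR-200a was called lower with TMM, at −1.33 ± 0.28 (SE), FDR = 0.00137, but not with RLE (−0.60) or totals (0.21), nor with TMM under a minimum count of 10 (−0.88), with known miRNAs only (−0.82) or with thinned libraries (−0.53). eca-miR-200b was 0.38 with TMM and was called higher with RLE (1.05) and totals (1.92), and eca-miR-429 turned from −0.06 with TMM to 0.63 with RLE and 1.47 with totals, called with totals only. Of the 6 members 4 were called with TMM, read against 68.4% of 310 miRNAs, 0 higher against 29.7% and 4 lower against 38.7%. The median log2 fold change was −1.33 for the 5 family members and −0.23 for the 310 miRNAs tested. Without embryo 5 the calls of eca-miR-200a (−0.87) and eca-miR-141 (−1.47, FDR = 0.0543) were lost, and without embryo 1 that of eca-miR-200a (−0.91).

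YS fluid and pregnant UF, both of them fluids extracted with a common kit, differed in eca-miR-141, eca-miR-200a and eca-miR-205 under each scaling. eca-miR-141 was lower in YS fluid, at −4.69 ± 0.40 (SE), FDR = 1.02e-07 on the log2 scale (−3.94 with RLE size factors and −2.88 with totals only). eca-miR-200a was lower, at −3.0 ± 0.38 (SE), FDR = 6.99e-06 (−2.29 with RLE size factors and −1.23 with totals only). eca-miR-205 was lower with FDR = 3.27e-06, and the pooled ratio above again stands for its fold change. eca-miR-200c was called lower with TMM, at −1.66 ± 0.30 (SE), FDR = 0.000234, not with RLE (−0.89), and had the opposite direction with totals (0.17). Its call was also lost with DESeq2 (−0.89), a minimum count of 10 (−0.74) and libraries thinned to the smallest (−0.18). eca-miR-200b and eca-miR-429 were not called with TMM (−0.59 and −0.67), had the opposite direction with RLE (0.17 and 0.06) and were called higher with totals (1.23 and 1.11). With TMM 4 of 6 members were called, read against 59.6% of 277 miRNAs, 0 higher against 23.5% and 4 lower against 36.1%. The median log2 fold change was −1.66 for the 5 family members and −0.54 for the 277 miRNAs tested.

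Within the conceptus, eca-miR-200a and eca-miR-141 were higher in the embryo than in YS fluid under each scaling. eca-miR-200a differed by 2.06 ± 0.37 (SE), FDR = 0.00221 on the log2 scale (1.98 with RLE size factors and 1.45 with totals only) and eca-miR-141 by 3.07 ± 0.64 (SE), FDR = 0.0043 (2.85 with RLE size factors and 2.35 with totals only). eca-miR-200b was higher by 1.36 ± 0.24 (SE), FDR = 0.00221, called with RLE (1.22) but not with totals (0.70). eca-miR-200c was lower in the embryo in direction under each scaling, at −0.86 ± 0.35 (SE), FDR = 0.0709 with TMM and −0.95 with RLE. Among the scalings it was called with totals only (−1.56), and each YS fluid exceeded its own embryo in CPM. eca-miR-429 was not called under any scaling (1.00 ± 0.42 (SE), FDR = 0.078, 0.91 with RLE size factors and 0.37 with totals only), and eca-miR-205, with 5 and 3 reads in all, could not be compared. Of 6 members 3 were called, read against 35.1% of 259 miRNAs, 3 higher against 22.0% and 0 lower against 13.1%. As a median, the log2 fold change was 1.36 for the 5 family members and 0.28 for the 259 miRNAs tested. Without embryo 1, YS fluid 1 or YS fluid 4, eca-miR-200c was called lower (−1.25, −1.06 and −1.01), and without YS fluid 3 eca-miR-429 was called higher (1.35). The call of eca-miR-200b was also lost with a minimum count of 10 (0.94), in a single fit of 28 libraries (0.99) and with libraries thinned to the smallest (0.79). With the minimum count of 10 (−1.28) and in the single fit (−1.33), eca-miR-200c was called lower in the embryo.

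**Figure D4:**
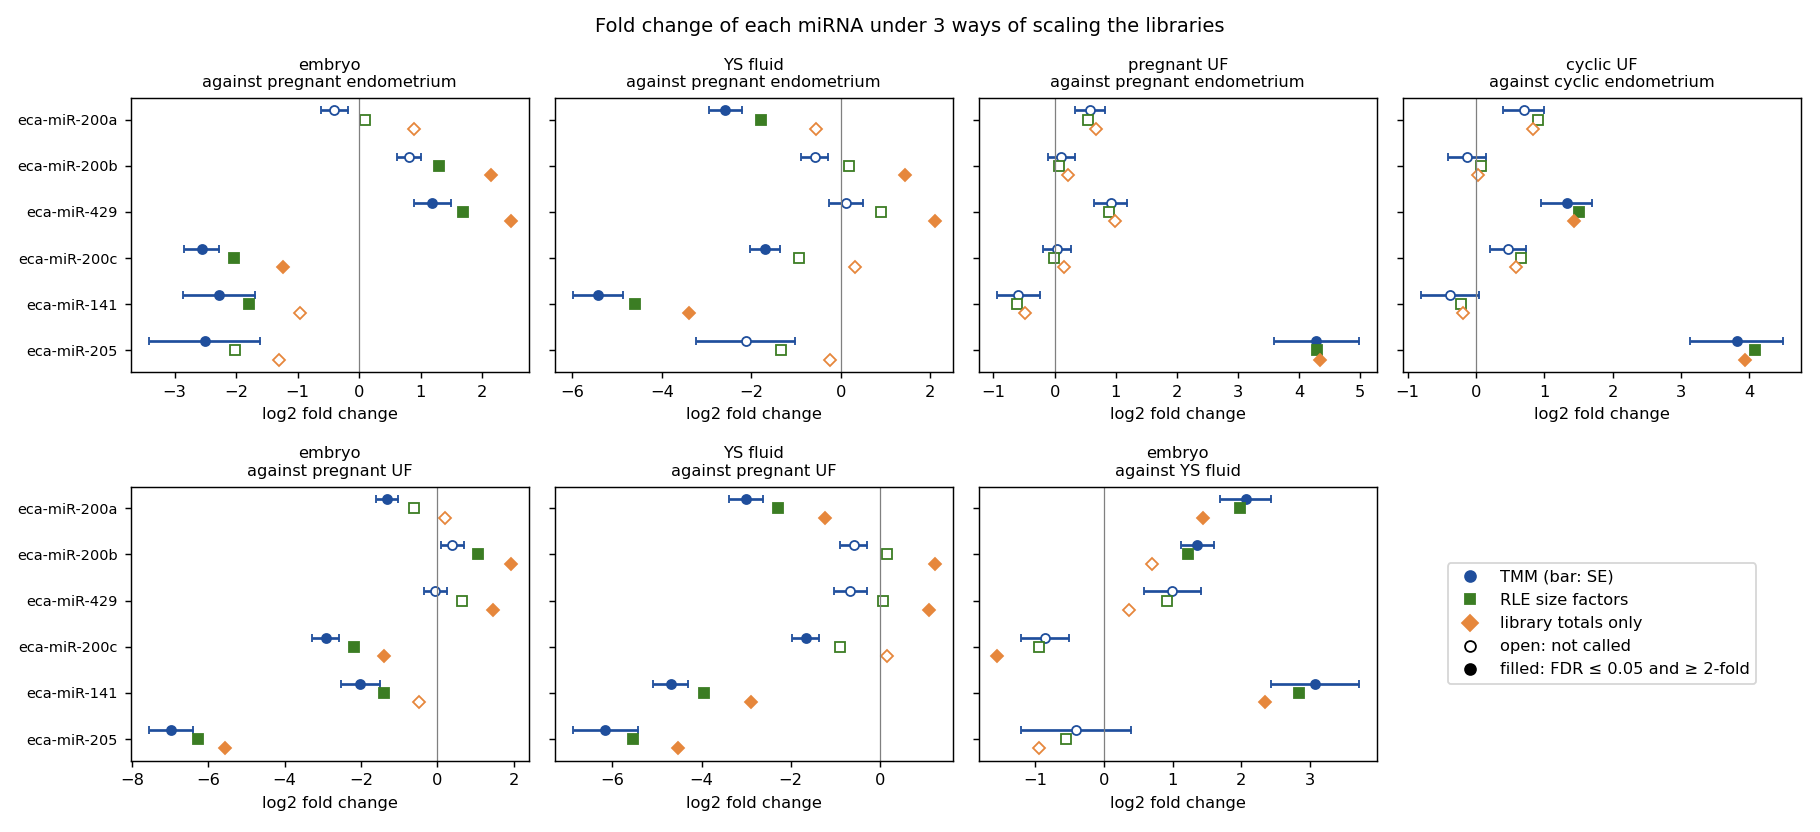
Log2 fold change of each of the 6 miRNAs in 7 comparisons of tissues and fluids, with TMM factors (circles, bars give the SE), RLE size factors (squares) and library totals only (diamonds); filled symbols passed both the FDR and the 2-fold limit. Where the embryo or YS fluid is compared with pregnant endometrium or pregnant UF, the symbols of a miRNA lie apart. In embryo against YS fluid the TMM and RLE symbols of the family lie near each other and those of totals further off. In the comparisons of UF with endometrium the symbols lie close together.

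Between UF and the endometrium of the same cycle type, eca-miR-205 differed most among the members. In pregnant mares eca-miR-205 was higher in UF by 4.28 ± 0.70 (SE), FDR = 0.00032 on the log2 scale, and in cyclic mares by 3.81 ± 0.68 (SE), FDR = 0.000488, in 5 of 5 and 4 of 4 mares, and both calls held with RLE (4.30 and 4.08) and totals (4.34 and 3.93). eca-miR-429 was called higher in cyclic UF, by 1.32 ± 0.37 (SE), FDR = 0.0108 (1.51 with RLE size factors and 1.44 with totals only, called in each), and in pregnant UF passed the FDR with less than a 2-fold change, at 0.92 ± 0.28 (SE), FDR = 0.0164. eca-miR-200a was 0.58 ± 0.24 (SE), FDR = 0.0707 in pregnant and 0.70 ± 0.30 (SE), FDR = 0.0925 in cyclic mares. eca-miR-141 was −0.59 and −0.38, and eca-miR-200c was 0.04 with TMM and −0.00191 with RLE in pregnant and 0.47 in cyclic mares, none of them called. eca-miR-200b, at 0.11 and −0.13, was not called either, and in cyclic mares turned to 0.08 with RLE and 0.03 with totals. In pregnant mares 1 of 6 members was called, read against 33.7% of 359 miRNAs, 1 higher against 13.6% and 0 lower against 20.1%, and in cyclic mares 2 of 6, read against 30.8% of 328, 2 higher against 11.9% and 0 lower against 18.9%. The median log2 fold change was 0.11 for the 5 family members and −0.12 for the 359 miRNAs tested in pregnant mares, and 0.47 for the 5 family members and −0.24 for the 328 miRNAs tested in cyclic mares. Without pregnant endometrium of mare 4, eca-miR-429 was also called in pregnant UF (1.11, FDR = 0.00707), and eca-miR-200a was called in cyclic UF without cyclic endometrium of mare 2 (1.23) or 4 (1.12) or without cyclic UF of mare 3 (1.25) or 4 (1.08), as well as with a minimum count of 10 (1.00) and with thinned libraries (1.11).

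Markers of other cell types differed between UF and endometrium as well. The stromal and smooth muscle list (miR-143, miR-145, miR-199a, miR-199b, miR-214, miR-133a and miR-1, 9 of 9 with reads in endometrium) summed to 17528 to 57073 CPM in endometrium and 364 to 8084 CPM in UF, where eca-miR-133a had 0 reads. The endothelial list (both arms of miR-126) summed to 1598 to 4816 and 7.42 to 316 CPM, the erythroid list (miR-451, miR-144 and both arms of miR-486) to 2674 to 13506 and 519 to 3246 CPM, and the leukocyte list (both arms of miR-142, miR-223 and miR-150) to 283 to 1807 and 364 to 1031 CPM. Of the miRNAs tested in pregnant UF against pregnant endometrium, 7 of 8 stromal, 2 of 2 endothelial, 3 of 4 erythroid and 1 of 4 leukocyte miRNAs were called lower. These counts are read against 20.1% of 359 miRNAs tested, and the leukocyte count lies near that share. The median log2 fold changes of the lists were −3.17, −4.56, −3.09 and −0.28. In cyclic mares 8 of 8, 2 of 2, 3 of 3 and 0 of 4 were called lower, read against 18.9% of 328. The part of these cell types in the levels of the miR-200 family and eca-miR-205 in UF was not tested.

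The same lists also separated the conceptus from the endometrium. In the embryo the stromal list summed to 379.7 to 1328 CPM (eca-miR-199a-5p and eca-miR-214 at 0), the endothelial list to 134 to 346, the erythroid list to 112 to 314 (eca-miR-144 at 0) and the leukocyte list to 0 to 55.2 CPM (eca-miR-142-3p and eca-miR-150 at 0). In YS fluid they summed to 692 to 6893 (eca-miR-145 and eca-miR-199b-5p at 0), 138 to 459.6 and 229.6 to 1379 CPM (eca-miR-144 and eca-miR-486-3p at 0), and no leukocyte miRNA had a read. The floor in YS fluid was 206 to 689 CPM. Their part in the differences of the members was not tested.

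Of the other miRNAs known from epithelia that had been listed, eca-miR-183, eca-miR-96 and eca-miR-182, which are transcribed from a common cluster, were analysed, and miR-203 and miR-375 were not analysed here. Their sum was 22515 to 62398 CPM in the embryo, 5817 to 14634 CPM in YS fluid, 1425 to 3524 CPM in endometrium and 1144 to 3347 CPM in UF. In the embryo 3 of 3 were called higher than in pregnant endometrium, pregnant UF and YS fluid, read against 28.7%, 29.7% and 22.0% of miRNAs tested. Their median log2 fold changes were 2.87, 2.94 and 3.41 with TMM, and these comparisons share the embryo libraries. In YS fluid against pregnant endometrium 0 of 3 were called higher, read against 17.9%, and 1, eca-miR-96, lower with TMM, read against 35.2%. In UF against endometrium 0 of 3 were called in either cycle type, read against 33.7% in pregnant and 30.8% in cyclic mares.

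Pregnancy itself was without a call among the members. In endometrium 0 of 6 were called between pregnant and cyclic mares, read against 3.37% of 386 miRNAs tested, and in UF 0 of 6, read against 4.92% of 305. At an unadjusted p under 0.05 there were 0 members in endometrium, where 16.8% of all miRNAs tested reached it, and 1 in UF, where 14.1% did, and DESeq2 called 0 in either. With the mare as block, the log2 fold changes of pregnant over cyclic endometrium were 0.35 ± 0.18 (SE), FDR = 0.302 for eca-miR-200c, 0.28 for eca-miR-429, 0.22 for eca-miR-200a, 0.09 for eca-miR-200b, −0.25 for eca-miR-141 and −0.65 ± 0.47 (SE), FDR = 0.679 for eca-miR-205. With totals only, eca-miR-200a (−0.01) and eca-miR-200b (−0.14) had the opposite direction. eca-miR-205 had the most negative difference in UF, −0.77 ± 0.39 (SE), FDR = 0.355 with an unadjusted p of 0.0494, and was lower in pregnant UF in 4 of 4 mares. eca-miR-200c was also lower in pregnant UF in 4 of 4 mares by CPM, at −0.25 ± 0.31 (SE), FDR = 0.891. The other 4 members lay between −0.18 for eca-miR-429 and 0.23 for eca-miR-200b in UF. As a median, the log2 fold change was 0.22 for the 5 family members and 0.08 for the 386 miRNAs tested in endometrium, and −0.08 for the 5 family members and 0.01 for the 305 miRNAs tested in UF.

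Whether pregnancy acted differently on UF and on endometrium was tested as an interaction, which 0 of 6 members passed at an FDR of at most 0.05, against 1.69% of 415 miRNAs tested. eca-miR-200c came nearest, whose pregnancy effect was lower in UF than in endometrium by 0.715 on the log2 scale (SE = 0.353, FDR = 0.737).

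**Figure D5:**
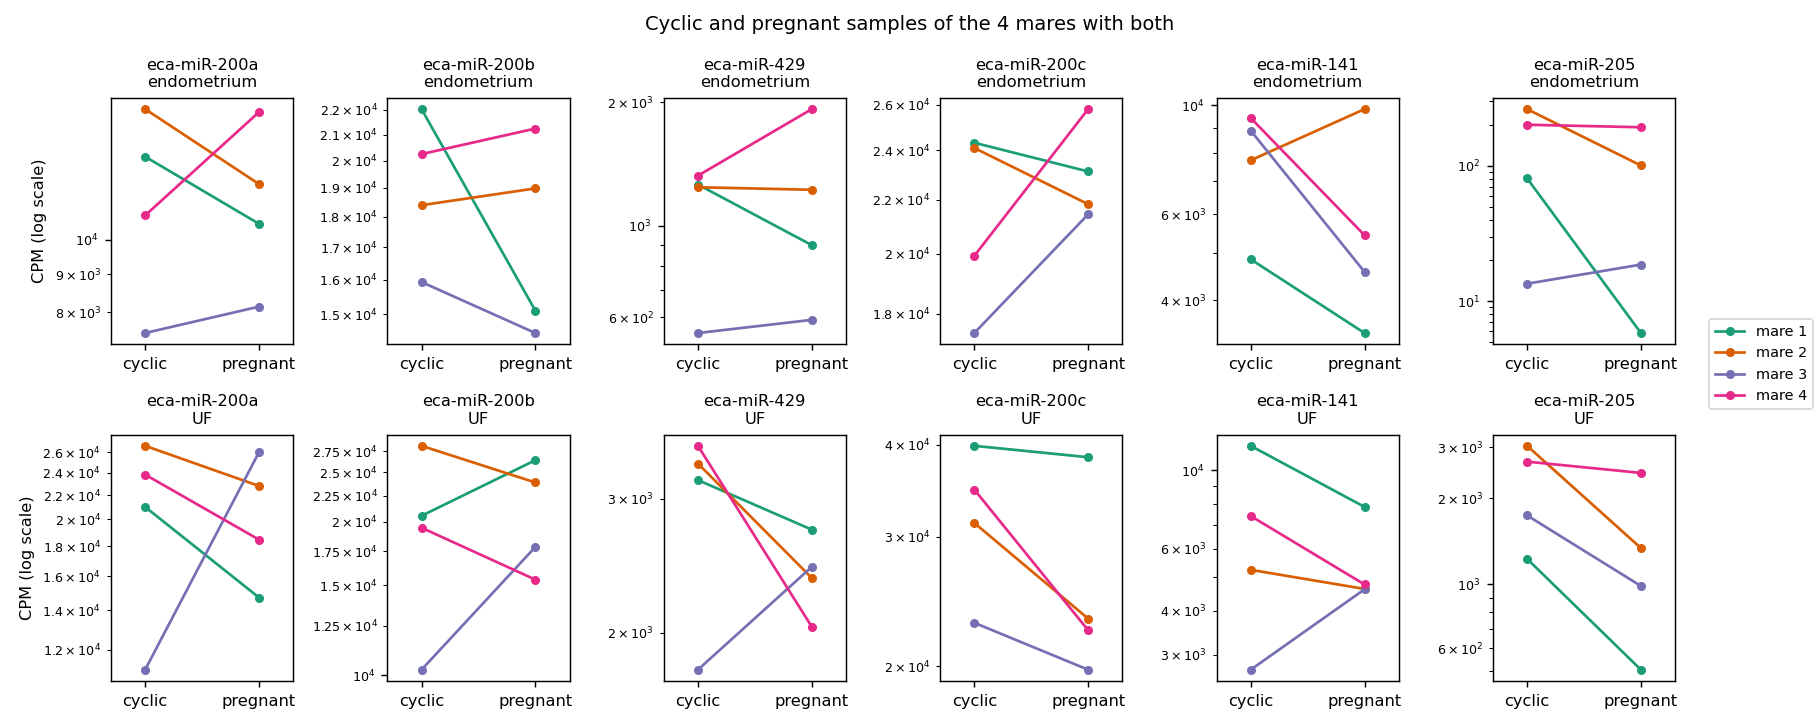
CPM (log axes) of each of the 6 miRNAs in the cyclic and the pregnant cycle of the 4 mares with both, in endometrium (top) and UF (bottom); each line joins the samples of a mare. Lines run in both directions in most panels, and in UF all 4 lines of eca-miR-200c and eca-miR-205 descend.

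The known miRNAs that correlated most with the members over the 28 libraries were sought among miRNAs above a mean level of 100 CPM, by Pearson's correlation of log2 CPM after TMM scaling. For the summed miR-200 family they were eca-miR-26a (r = 0.896), eca-miR-27b (r = 0.882), eca-miR-30d (r = 0.874), eca-miR-21 (r = 0.874) and eca-miR-30b (r = 0.873), and most of these rested on the scaling. On plain CPM, without TMM factors, r was −0.0779 for eca-miR-26a, −0.399 for eca-miR-27b and 0.134 for eca-miR-21, and stayed high for eca-miR-30d (0.763) and eca-miR-30b (0.845). eca-miR-26a, for instance, had 85309 CPM in pregnant endometrium, 82266 in pregnant UF, 74208 in the embryo and 38537 in YS fluid as group means. For eca-miR-205 they were eca-miR-449b (r = 0.922), eca-miR-1180 (r = 0.912), eca-miR-34b-3p (r = 0.902), eca-miR-92b (r = 0.887) and eca-miR-449a (r = 0.876), and on plain CPM r was 0.866, 0.796, 0.881, 0.843 and 0.851 in the same order. eca-miR-34b-3p, as an example, averaged 6190.1 CPM in cyclic UF and 4695 in pregnant UF, against 478 and 222 CPM in cyclic and pregnant endometrium and 57.9 CPM in the embryo. eca-miR-92b averaged 29314 and 21944 CPM in cyclic and pregnant UF and 1734 and 1228 CPM in the endometrium. These correlations are descriptions across libraries that fall into 6 groups and share their depth and scaling factors.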

How the data were processed

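Small RNA of 28 samples was sequenced as single reads on an Illumina MiSeq. The authors trimmed adapters with cutadapt 1.11 (per the labels' processing notes), removed short and low-quality reads, ran miRPro with miRBase entries of the horse and the EquCab2 genome to count known miRNAs and to predict others, and deposited raw read counts per mature miRNA, without normalization. The deposited counts of 690 known and 154 predicted miRNAs were analysed together. A further deposited table, of the precursors of the predicted miRNAs, was not used. Library totals lay between 4352 and 590593 reads.

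Levels were plain CPM. For each of 9 comparisons a separate edgeR model (edgeR 4.0.16, limma 3.58.1, R 4.3.3) took only the libraries compared, keeping miRNAs with at least 1 CPM in as many libraries as the smaller group, with TMM factors, the quasi-likelihood test and Benjamini-Hochberg adjustment. edgeR and both limits for a call follow the study's methods. Pregnant and cyclic samples were compared with a term for the mare, as in the study's switch-back design, so that mare 5 enters the filter and factors but not the contrast. Samples of the same mare deviated together in these comparisons (correlation of deviations from group means 0.167 to 0.359 in endometrium and 0.111 to 0.513 in UF over 4 mares). Ratios took 0.5 added to each count, and were compared by exact permutation tests. Ratios of few reads carry exact conditional binomial intervals at 95%. The fit with TMM factors was tested on simulated data, drawn from a single pooled profile with a fixed spread. On these simulated data TMM factors shifted the comparisons of the shallow embryo and YS fluid libraries with deeper ones. No other scaling was simulated, so whether RLE factors or library totals shift them less could not be told there. CPM, within-library ratios and 2 further scalings are therefore given beside the fit. No replicates agreed within sampling noise.

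Named are the 6 members, the 5 known miRNAs with the highest correlation to the family's sum and to eca-miR-205 above a mean level of 100 CPM, and members of the marker lists. The members and lists were chosen with earlier results of these data known. The alternatives were the likelihood ratio test, DESeq2 1.42.0, RLE size factors, no filter or a minimum count of 10, known miRNAs only, 28 libraries in a single fit, libraries thinned to the smallest, the block added or left out, a pseudocount of 1, each replicate left out and, chosen after seeing the data, library totals only and correlations on plain CPM. Ratios, levels and plots were made in Python 3.11.15 (scipy 1.17.1, numpy 2.4.6, pandas 2.3.3, matplotlib 3.10.9).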

Additional observations from a re-analysis of the deposited data

Results flagged for a closer look

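Across 48 groups of values (the 6 members and the 2 ratios in 6 groups), 4 held a library whose gap to its nearest neighbour passed Dixon's limit for the group, and chance alone gives about 1 in 20. eca-miR-429 in cyclic endometrium of mare 3 was low, at 549 CPM against 1242 to 1325 CPM in the other libraries of the group. eca-miR-200c and eca-miR-141 in pregnant UF of mare 1 were high, at 38446 CPM against 19776 to 23207 CPM and at 7875 CPM against 4599 to 5166 CPM. Cyclic UF of the same mare was likewise the highest of its group in both miRNAs, at 39840.5 and 11729 CPM. The log2 ratio of eca-miR-200c to eca-miR-200b reads was −1.75 in embryo 1, against −3.75 to −3.18 in the other embryos, and still lay below every uterine and YS fluid library. eca-miR-200c was highest and eca-miR-200b and eca-miR-141 were lowest in this embryo among the 5.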

How the results depend on the processing

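Over the alternatives other than leaving out a library, 441 values of a member's fold change kept their direction and their side of the limits, 30 lost a call, 24 gained one and 52 changed direction, 4 of these with a lost and 5 with a gained call. Changes of direction fell in comparisons with the embryo or YS fluid and in those without, cyclic UF against cyclic endometrium among them. There was none in embryo against YS fluid. The cause of these changes was not tested. The likelihood ratio test (63 values) and a pseudocount of 1 in the ratios (18 values) changed no direction and no call. Calls that were made under TMM, RLE factors and library totals alike (the last chosen after seeing the data) are named in the comparisons above.

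The following values had the opposite direction. In pregnant against cyclic endometrium these were eca-miR-141 at 0.12 in a single fit of 28 libraries, and eca-miR-200a (−0.014) and eca-miR-200b (−0.14) with totals. In pregnant against cyclic UF it was eca-miR-200a at −0.037 in the single fit. In embryo against pregnant endometrium eca-miR-200a was 0.10 with DESeq2 and with RLE, 0.69 with thinned libraries and 0.89 with totals. In YS fluid against pregnant endometrium eca-miR-200b was 0.19 with DESeq2 and with RLE, 0.040 with the minimum count of 10, 0.18 with known miRNAs only, 1.23 thinned and 1.44 with totals, eca-miR-429 was −0.28 without a filter, and eca-miR-200c was 0.26 thinned and 0.32 with totals. In pregnant UF against pregnant endometrium eca-miR-200c was −0.0018 with DESeq2, −0.0019 with RLE and −0.12 without a filter, and eca-miR-200b was −0.041 without a filter. In cyclic UF against cyclic endometrium eca-miR-200b was 0.079 with DESeq2 and with RLE, 0.063 without a filter, 0.18 with the minimum count, 0.054 with known miRNAs only, 0.11 in the single fit, 0.25 thinned and 0.034 with totals, and eca-miR-141 was 0.053 thinned. In embryo against pregnant UF eca-miR-429 was 0.63 with DESeq2 and with RLE, 0.25 without a filter, 0.37 with the minimum count, 0.42 with known miRNAs only, 0.017 in the single fit, 0.94 thinned and 1.47 with totals, and eca-miR-200a was 0.21 with totals. In YS fluid against pregnant UF eca-miR-200b was 0.17 with DESeq2 and with RLE, 0.32 with the minimum count, 0.98 thinned and 1.23 with totals, eca-miR-429 was 0.071 with DESeq2, 0.062 with RLE, 0.23 with the minimum count, 0.35 thinned and 1.11 with totals, and eca-miR-200c was 0.17 with totals.

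In pregnant UF against pregnant endometrium 2 members in place of 1 were called with the minimum count of 10, with known miRNAs only and with thinned libraries, eca-miR-429 being the second (1.06, 1.12 and 1.16). Leaving out a library gave 1 to 2 calls there and 2 to 4 in embryo against pregnant UF.

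Without the block of the mare, eca-miR-141 in pregnant against cyclic endometrium was 0.20. With a replicate block, eca-miR-200c in pregnant UF against pregnant endometrium was −0.011, and samples of the same mare did not deviate together in every pair in the comparisons of tissues and fluids. No call of a member changed with the block. Within pairs of the same number, the sign-flip test of the ratios cannot pass at 5 pairs after adjustment (0.141 for each). For eca-miR-200c to eca-miR-200b the differences were then −3.43 and −3.35 for the embryo against pregnant endometrium and pregnant UF. They were −1.14 and −1.06 for YS fluid against the same 2 groups, and −2.29 for embryo against YS fluid. For eca-miR-141 to eca-miR-200a they were −2.04 for the embryo and −2.54 for YS fluid against pregnant endometrium.

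For the fold changes, 1 mare at a time was left out in pregnant against cyclic samples, and 1 library at a time in the other comparisons. The direction changed within these ranges: −0.0045 to 0.28 for eca-miR-200a and −0.090 to 0.11 for eca-miR-200b in pregnant against cyclic endometrium, −0.24 to 0.27 for eca-miR-200a and −0.33 to 0.043 for eca-miR-141 in pregnant against cyclic UF, −0.54 to 0.15 for eca-miR-429 in YS fluid against pregnant endometrium, −0.045 to 0.19 for eca-miR-200b and −0.16 to 0.12 for eca-miR-200c in pregnant UF against pregnant endometrium, −0.19 to 0.42 for eca-miR-200b and −0.59 to 0.25 for eca-miR-141 in cyclic UF against cyclic endometrium, and −0.17 to 0.38 for eca-miR-429 in embryo against pregnant UF. With 1 library left out at a time, the log2 difference of the eca-miR-141 to eca-miR-200a ratio ran from −0.43 to 0.11 in pregnant against cyclic UF, from −1.27 to −0.87 in pregnant UF against pregnant endometrium and from −1.87 to −1.21 in YS fluid against pregnant UF.

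In YS fluid eca-miR-141 rests on 5 to 10 reads, and in embryo and YS fluid eca-miR-205 on at most 1 read per library, which limits the precision of their fold changes.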
